A study of Cavia porcellus with 35 samples.

Results

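The medial prefrontal cortex (mPFC) of untreated juvenile guinea pigs was described from the control libraries of 3 generations of females. Members were the control columns of the F1, F2 and F3 female count tables, 4 animals per generation, which gave 12 of the 35 libraries of the series. All 12 animals were sampled at postnatal day 40, with 1 library per animal. The F1 controls were daughters of pregnant guinea pigs given saline, and the F2 and F3 controls came from control males of the preceding generation mated with females from outside the experiment, so no control descended from a dam given betamethasone, the synthetic glucocorticoid (sGC) of the other arm. The strain was not given in the sources used here, and samples had been chosen for sequencing by the amount and quality of their RNA.

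The mPFC controls attention, behavioural inhibition and the stress axis. Its excitatory neurons carry the vesicular glutamate transporter SLC17A7 and sit in layers that express different transcription factors, its inhibitory interneurons express the GABA synthesizing enzymes GAD1 and GAD2, and its axons are wrapped in myelin made by oligodendrocytes. The punches covered cingulate area 1 and the infralimbic cortex of the right hemisphere. The striatum and the white matter of the corpus callosum lie close to these areas. Striatal projection neurons are recognised by dopamine receptors and the phosphoprotein PPP1R1B, and myelin by genes such as MOG, MAG and CNP.

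Between 12855956 and 17433974 reads per control library had been assigned to gene symbols. The F1, F2 and F3 tables listed 11478, 11362 and 11651 symbols, 11045 symbols were in all 3, and 11025 of these were tested. Levels are given as counts scaled to 1e+06 reads assigned to the tested symbols, with TMM factors (CPM). They are not scaled to gene length, so they compare animals and not genes. Each generation was counted in a table of its own, so a difference between generations cannot be told apart from a difference between tables or between processing runs, and this holds for every contrast below. In bulk tissue, fewer cells of a type also cannot be told apart from less RNA per cell. The serial numbers in the column headers run from 1 to 24 across the 3 female tables and are interleaved between generations and treatments. One animal of each sex had been taken per litter.

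The labelled region was checked first, because the extraction notes name the paraventricular nucleus of the hypothalamus while the source is the prefrontal cortex. The hypothalamic peptide genes were close to the lowest levels measured. AVP, which encodes vasopressin, lay between 0.520 and 1.29 CPM in the 12 libraries, OXT, which encodes oxytocin, between 1.31 and 3.60 CPM, and HCRT, which encodes orexin, between 0.505 and 1.997 CPM. SIM1, a transcription factor of paraventricular neurons, was somewhat higher at 3.68 to 16.0 CPM. Cortical genes were present in every library, with SLC17A7 between 183 and 1465 CPM and CAMK2A, a kinase of excitatory synapses, between 992 and 2463 CPM. The cortical markers were thus present in all 12 libraries while the hypothalamic peptides were near 0. Choroid plexus and meningeal genes were also low, with 7 of the list of 12 tested and a summed level of 59.8 to 105 CPM.

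The most abundant symbols were mostly genes that brain cells share. PSAP, the precursor of lysosomal saposins, ranged from 2993 to 4197 CPM, and ACTB, cytoplasmic actin, from 2479 to 4097 CPM. The glial glutamate transporter SLC1A2 ranged from 2539 to 3491 CPM and the synaptic vesicle fusion protein SNAP25 from 2447 to 3809 CPM. RTN3, SPARCL1, HSPA8 and Clu were in the same group of 10. BPHL, a hydrolase, was at 2626 to 2818 CPM in F1, at 4815 to 5565 CPM in F2 and at 2761 to 3658 CPM in F3. GLRA4 owed its place in this group to F3 alone. GLRA4, a glycine receptor subunit gene, was at 0.518 to 0.645 CPM in F1, at 3.53 to 6.76 CPM in F2 and at 6491 to 17540 CPM in F3.

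Animals within a generation resembled each other more than animals of different generations. The median absolute difference in log2 CPM over all tested symbols was 0.0805 to 0.196 between F1 animals, 0.106 to 0.139 between F2 animals and 0.0650 to 0.166 between F3 animals. Between generations it was 0.184 to 0.278 for F1 and F2, 0.249 to 0.372 for F1 and F3, and 0.330 to 0.395 for F2 and F3. The lowest pair of F1 and F2 animals thus overlapped the most distant pair within F1, while the F3 animals stood apart from every animal of the other tables. The median SD of log2 CPM within a generation was 0.130 in F1, 0.115 in F2 and 0.114 in F3, and 656 symbols in F1 exceeded an SD of 0.5, against 272 in F2 and 324 in F3.

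Several striatal genes were among the most variable between untreated animals. Among symbols with a mean of at least 10 CPM, the largest pooled SDs of log2 CPM within generations belonged to DRD2 (1.62), the dopamine D2 receptor, ANXA1 (1.36), an anti-inflammatory phospholipid-binding protein induced by glucocorticoids, and SYNDIG1L (1.31), a synaptic membrane protein found mainly in striatum. Lpl, Pdyn, KRT80, SLC24A4, RASD2, DNAH7 and PLK4 followed, at 0.815 to 0.898. Pdyn, which encodes the opioid peptide precursor prodynorphin, and RASD2, a small GTPase enriched in striatum, are likewise known from striatal neurons. ANXA1 was at 49.0 CPM in F1 control 1 and at 1.58 to 8.73 CPM in the other F1 controls. The smallest SDs belonged to KCMF1 (0.0197), a ubiquitin ligase, to CCT6A (0.0243) and CCT2 (0.0267), subunits of the chaperonin that folds actin and tubulin, to a symbol stored in date form as 8-Sep (0.0252) and to PRAF2 (0.0268). CCT2 lay between 225 and 237 CPM in the 4 F1 controls, between 258 and 265 CPM in F2 and between 194 and 201 CPM in F3.

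Within F1, controls 1 and 4 carried high striatal levels and controls 2 and 3 lower ones. DRD2 was at 173, 14.4, 24.6 and 192 CPM in F1 controls 1 to 4. PPP1R1B, a phosphoprotein of dopamine signalling, was at 1370, 259, 454 and 1261 CPM, and PENK, the enkephalin precursor, at 495, 132, 188 and 462 CPM. SYNDIG1L followed the same order, at 395, 44.3, 74.0 and 410 CPM. The 4 genes were each highest in controls 1 and 4, and for 14 of the 16 tested members of the striatal list the lowest F1 library was control 2. Over all tested symbols, control 2 was the lowest F1 library for 32.1%. The summed level of the 16 members was 4546, 1354, 1866 and 4003 CPM in F1 controls 1 to 4.

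The F2 controls had low striatal levels that differed little between animals. DRD2 was at 0.230, 4.77, 0.929 and 1.15 CPM, a range from 3 to 61 reads, and PPP1R1B at 89.7, 95.3, 78.7 and 79.3 CPM. PENK was at 69.1, 44.5, 35.1 and 40.0 CPM and DRD1, the dopamine D1 receptor, at 23.6, 23.2, 19.1 and 19.58 CPM. The summed level was 562 to 631 CPM, below every F1 and F3 library. In F3 the levels lay in between. DRD2 was at 2.58, 7.28, 25.0 and 4.86 CPM and PPP1R1B at 121, 286, 405 and 216 CPM in F3 controls 1 to 4. Control 3 was the highest F3 library for 13 of the 16 members, against 25.2% of all tested symbols, and control 1 the lowest for 12, against 27.6%.

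**Figure D1:**
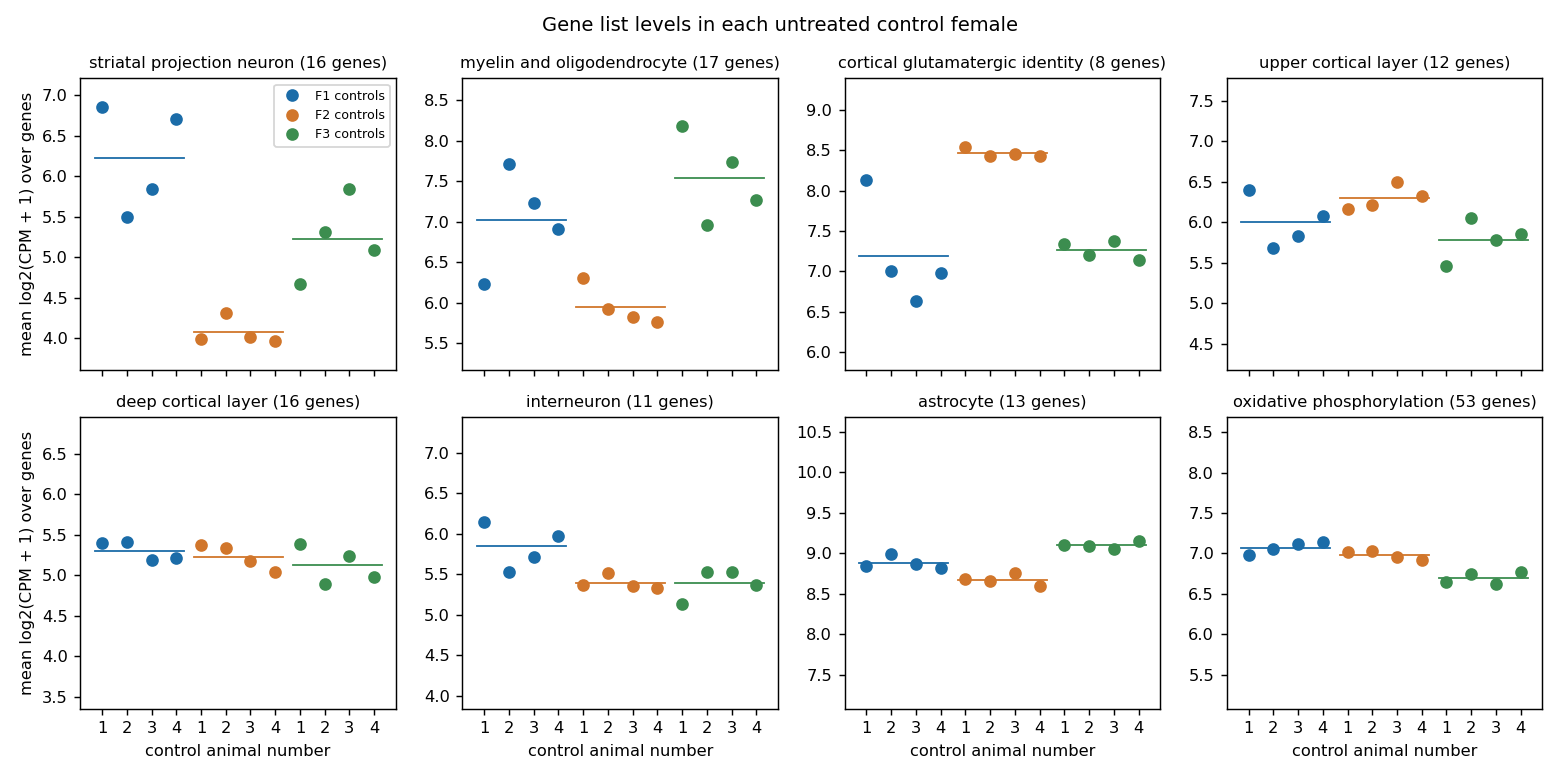
Mean log2(CPM + 1) over the tested members of 8 gene lists in each control animal, with animals on the horizontal axis by generation and a line at each generation's mean. All panels span the same number of log2 units. The striatal level runs from 3.96 in an F2 animal to 6.85 in F1 control 1, while the deep layer level stays between 4.89 and 5.41.

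The striatal list differed between generations in the controls. With edgeR's quasi-likelihood test and Benjamini-Hochberg adjustment over all tested symbols (called at an FDR under 0.05), 14 of the 16 members were lower in F2 than in F1 and none was higher. The median log2 fold change was -2.17, against -0.01 over all symbols. Of all symbols, 13.7% were called lower in F2 and 15.1% higher. PPP1R1B was lower in F2 by a log2 fold change of -3.29 ± 0.50 (SE, n = 4 per generation, FDR = 0.000328), TAC1, the substance P precursor, by -2.76 ± 0.35 (FDR = 6.52e-05) and RARB, a retinoic acid receptor, by -3.27 ± 0.30 (FDR = 2.69e-06). Pdyn and IKZF1 did not pass the test, at -0.30 ± 0.47 and -0.29 ± 0.18. Without F1 controls 1 and 4 together, 13 of the 16 members were still lower in F2.

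Relative to F2, 10 of the 16 striatal members were higher in F3 and none was lower, with a median log2 fold change of 1.42, while 32.8% of all symbols were called higher in F3 and 31.4% lower. PDE10A, a phosphodiesterase of striatal neurons, was at 33.0, 35.0, 43.3 and 27.3 CPM in F2 and at 61.9, 139, 193 and 112 CPM in F3, without overlap (log2 fold change 1.87 ± 0.37, FDR = 0.000813). Between F3 and F1, 9 members were lower in F3 and none higher, with 27.7% of all symbols called lower and 28.0% higher. The F3 and F1 animals overlapped for 14 of the 16 members. Over all symbols, 48.3% did not overlap between these generations. The count of members called lower in F3 than in F1 ranged from 6 to 11 when 1 animal was left out. It was 6 without F1 control 4, 7 without F1 control 1 and 2 without both. DRD2 and PPP1R1B, at -3.36 ± 0.87 and -1.70 ± 0.47 in this contrast, were then at -0.98 (FDR = 0.301) and -0.47 (FDR = 0.302). ADORA2A, an adenosine receptor of striatal neurons, and SIX3 have rows in the F1 and F3 tables only. ADORA2A was at 374, 42.5, 67.5 and 382 CPM in F1 and at 8.08, 38.7, 74.1 and 19.8 CPM in F3, so F1 controls 1 and 4 stood out for this gene as well. GPR6 and ISL1 were not analysed here.

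Excitatory cortical genes ran partly against the striatal genes across generations. SLC17A7 was at 1059, 339, 183 and 257 CPM in F1 controls 1 to 4, at 1427, 1430, 1465 and 1366 CPM in F2 and at 791, 489, 742 and 458 CPM in F3. The F2 animals were the highest and lay close together, while F1 control 1 lay above the F3 animals and the other F1 controls below them. NEUROD6, a transcription factor of pyramidal neurons, was at 54.9, 17.6, 7.95 and 11.6 CPM in F1 and at 93.1 to 97.8 CPM in F2. NEUROD2 was at 16.0 to 85.8 CPM in F1, at 221 to 255 CPM in F2 and at 49.6 to 73.3 CPM in F3, and EMX1, a dorsal forebrain homeobox gene, was at 6.37 to 38.3, 46.8 to 49.2 and 22.6 to 30.6 CPM. F1 control 1 was the highest F1 library for 7 of the 8 tested members, against 33.5% of all tested symbols, so the same animal was high for striatal and for excitatory cortical genes.

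Of the 8 cortical glutamatergic members, 5 were higher in F2 than in F1 and none was lower, with a median log2 fold change of 1.07. NEUROD2 had the largest difference (2.58 ± 0.40, FDR = 0.00037) and SLC17A7 was at 1.63 ± 0.44 (FDR = 0.0141). Relative to F2, 7 of the 8 were lower in F3. CAMK2A was at 2274 to 2463 CPM in F2 and at 992 to 1362 CPM in F3 (-1.03 ± 0.11, FDR = 6.32e-06), and GRIN1, the obligatory NMDA receptor subunit, was at 797 to 960 and 415 to 432 CPM (-1.01 ± 0.09, FDR = 1.5e-06). Between F3 and F1, 4 were lower in F3, namely CAMK2A, NRGN, GRIN1 and SLC17A6. Over all symbols, 15.1% were called higher in F2 than in F1, 31.4% lower in F3 than in F2 and 27.7% lower in F3 than in F1. Without F1 control 1, 4 of the 8 were higher in F3 than in F1 and 3 were lower.

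**Figure D2:**
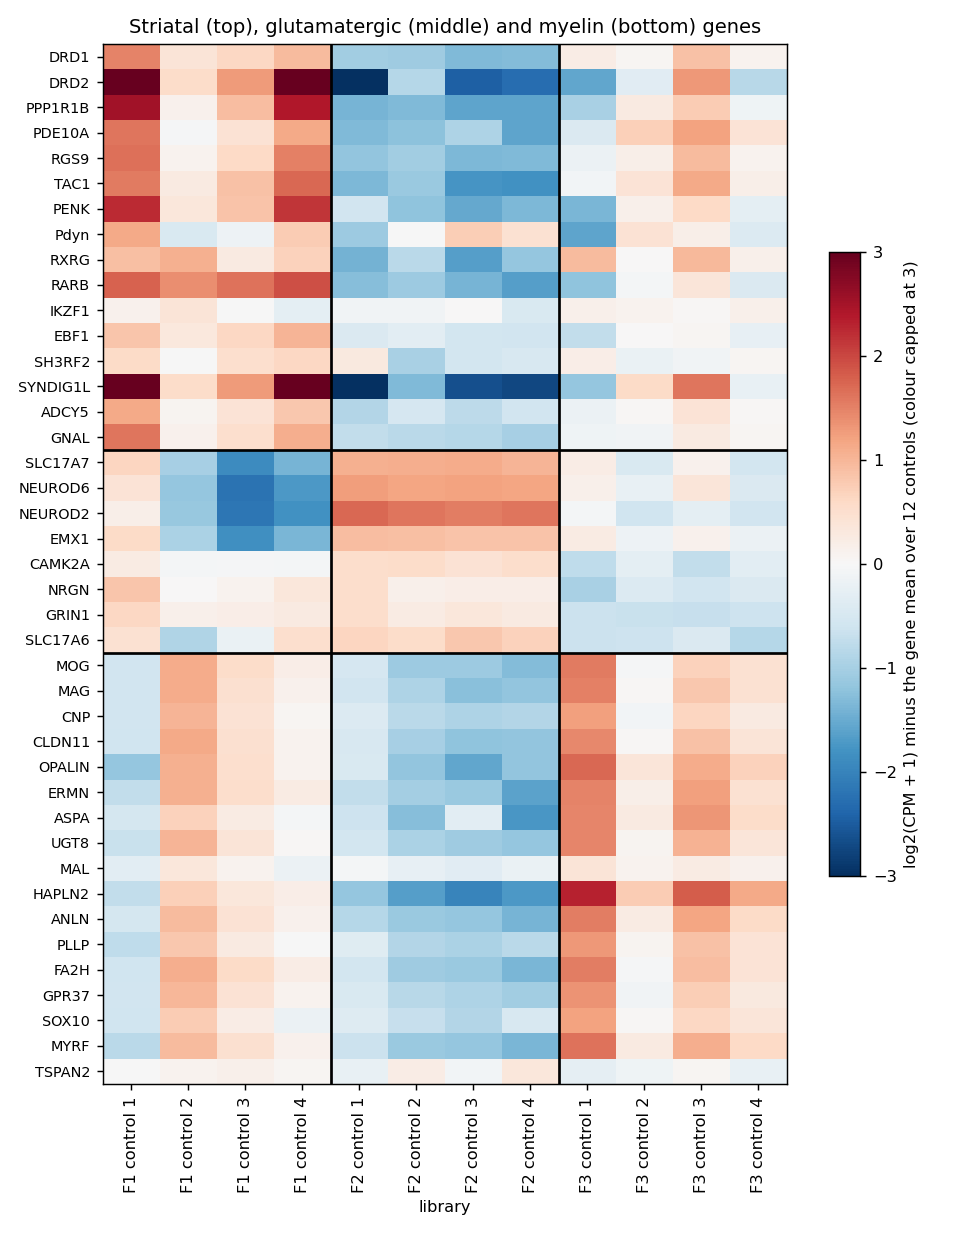
Levels of 16 striatal, 8 cortical glutamatergic and 17 myelin genes (rows, separated by lines) in the 12 control libraries (columns), as log2(CPM + 1) minus each gene's mean over the 12. Red is above and blue below that mean, with colours capped at 3. F1 controls 1 and 4 are red for most striatal genes, the F2 controls are blue for striatal and myelin genes and red for glutamatergic genes, and F3 control 1 is red for most myelin genes.

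Layer markers had smaller median differences between generations than the striatal genes. Of 12 upper layer genes, 4 were higher in F2 than in F1 and 1, WFS1, was lower, while 6 were lower in F3 than in F2 and none was higher. Of all symbols, 15.1% were called higher and 13.7% lower in F2 than in F1, and 31.4% lower in F3 than in F2. RASGRF2, a calcium-dependent exchange factor of upper layers, was at 135, 61.1, 77.9 and 95.6 CPM in F1, at 201, 210, 292 and 243 CPM in F2 and at 54.4, 106, 53.3 and 88.7 CPM in F3, so the F2 animals lay above all others. The count of upper layer members higher in F2 fell from 4 to 2 without F1 control 2, 3 or 4 or F2 control 3. The count lower in F2 rose from 1 to 2 without F1 control 2 and to 3 without F3 control 1. LAMP5 was at 186 to 335 CPM in F1, at 212 to 328 CPM in F2 and at 81.0 to 135 CPM in F3, below both other generations. CUX1 was at 114 to 182 CPM throughout. CUX2 has rows in the F1 and F2 tables only.

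Of 16 deep layer genes, 2 were higher and 3 lower in F2 than in F1, 3 higher and 5 lower in F3 than in F1, and 3 higher and 5 lower in F3 than in F2. The shares of all symbols were 15.1% higher and 13.7% lower, 28.0% and 27.7%, and 32.8% and 31.4% in these contrasts, so the deep layer counts lay near the background. Without F2 control 3 or F3 control 1, 1 member instead of 3 was higher in F3 than in F2. FEZF2, which specifies subcortical projection neurons, was at 51.1, 22.0, 14.8 and 21.1 CPM in F1 and at 56.4 to 74.7 CPM in F2 (1.21 ± 0.31, FDR = 0.0109). CRYM, a thyroid hormone binding protein, was at 134 to 194 CPM in F1 and at 256 to 304 CPM in F2 (0.90 ± 0.18, FDR = 0.00269). BCL11B and FOXP2 went the other way, from 51.4 to 61.9 CPM in F1 to 26.1 to 36.3 CPM in F2 for BCL11B and from 39.6 to 57.5 to 23.0 to 30.6 CPM for FOXP2. Both are also expressed by striatal projection neurons. TLE4, of layer VI, lay between 97.5 and 176 CPM and passed the test in no contrast. TBR1 was not analysed here.

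The GABA genes GAD1 and SLC32A1 were higher in F1 than in the other generations. GAD1 was at 350, 273, 364 and 413 CPM in F1, at 238, 267, 239 and 239 CPM in F2 and at 175, 256, 236 and 244 CPM in F3, and the vesicular GABA transporter SLC32A1 at 282, 139, 187 and 249, at 87.7 to 99.8 and at 74.9 to 123.4 CPM. F1 did not overlap the other generations for either gene. Striatal projection neurons use GABA as well. Of 11 interneuron genes, 6 were lower in F2 than in F1, and between F3 and F1 6 were lower and 1 higher in F3. Over all symbols the shares were 13.7% lower in F2, and 27.7% lower and 28.0% higher in F3. Without F1 control 1, 3 interneuron genes were higher in F3 than in F1. PVALB, the calcium buffer of fast-spiking cells, was at 60.8 to 86.8 CPM in F1, at 43.2 to 115 CPM in F2 and at 16.9 to 21.5 CPM in F3 (-1.97 ± 0.26 against F1, FDR = 4.71e-05). SST, the somatostatin precursor, lay between 97.1 and 189 CPM and did not pass the test in any contrast. NPY, neuropeptide Y, was lowest in F2 at 42.0 to 48.8 CPM, intermediate in F1 at 73.1 to 79.8 CPM and highest in F3 at 90.7 to 130 CPM.

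Myelin genes differed between animals and between generations. MOG was at 233, 752, 507 and 400 CPM in F1 controls 1 to 4, at 244, 162, 162 and 140 CPM in F2 and at 1018, 337, 563 and 478 CPM in F3. CNP was at 728 to 2180 CPM in F1, at 565 to 813 CPM in F2 and at 1021 to 2542 CPM in F3, and HAPLN2, which links matrix at nodes of Ranvier, at 13.1 to 37.3, 4.90 to 9.503 and 38.8 to 115.9 CPM. Within F1, control 1 was lowest for 17 of the 17 tested members and control 2 highest for 16. Within F3, control 1 was highest for 16 and control 2 lowest for 16. For F1 control 2 the share of all symbols at which it was highest was 33.4%, and for F1 control 1 the share at which it was lowest was 34.5%.

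Of the 17 myelin members, 14 were lower in F2 than in F1, with a median log2 fold change of -1.35, and 16 were higher in F3 than in F2, with a median of 1.76. The remaining member was TSPAN2, which lay between 8.02 and 12.82 CPM in every library. Of all symbols, 13.7% were called lower in F2 than in F1 and 32.8% higher in F3 than in F2. The F1 and F2 animals did not overlap for 3 members, against 29.6% of all symbols, and the F2 and F3 animals for 16, against 60.5%. The count of 14 lower in F2 fell to 8 without F1 control 2, to 8 without F2 control 4 and to 9 without F2 control 3. Between F3 and F1 only HAPLN2 passed the test (1.46 ± 0.35, FDR = 0.00327), but 9 members did so without F1 control 2, which had the highest myelin level of that generation, 3 without F3 control 2, and 2 without F2 control 3, F2 control 4 or F3 control 4. MBP and MOBP were not analysed here.

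Of 10 genes of oligodendrocyte precursors, 6 were higher in F3 than in F2 and none was lower, with a median log2 fold change of 0.64, against 32.8% of all symbols called higher. The count was 4 without F2 control 3 or F3 control 1. PDGFRA, the growth factor receptor of these cells, was at 56.7 to 93.7 CPM in F1, at 77.2 to 103 CPM in F2 and at 92.4 to 101 CPM in F3, and CSPG4 stayed between 14.6 and 18.7 CPM. OLIG2 differed from the rest of its list. It was at 44.7, 109, 75.1 and 55.0 CPM in F1, at 227 to 316 CPM in F2 and at 322 to 565 CPM in F3, a log2 fold change of 1.93 ± 0.25 from F1 to F2 (FDR = 7.35e-05). OLIG1, a related factor of the same lineage, was at 202 to 521, 210 to 263 and 327 to 615 CPM.

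A few astrocyte genes were far higher in F3, and others were not. AQP4, the astrocytic water channel, was at 567, 949, 654 and 638 CPM in F1, at 538, 465, 647 and 539 CPM in F2 and at 2527, 2008, 2267 and 2057 CPM in F3 (2.02 ± 0.15 against F2, FDR = 2.13e-07). S100B was at 607 to 719 CPM in F1, at 543 to 618 CPM in F2 and at 1511 to 1584 CPM in F3. GFAP, the intermediate filament of astrocytes, was at 352 to 648, 201 to 409 and 726 to 1554 CPM. The glutamate transporters SLC1A2 and SLC1A3 did not rise in F3, with log2 fold changes against F2 of -0.24 ± 0.07 and -0.59 ± 0.13. Of 13 astrocyte genes, 8 were higher and 3 lower in F3 than in F2, against 32.8% and 31.4% of all symbols.

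Subunits of the respiratory chain and ATP synthase were lower in F3. Of 53 oxidative phosphorylation genes, 45 were lower and 2 higher in F3 than in F1, with a median log2 fold change of -0.42, and 40 were lower and 2 higher than in F2, with a median of -0.28. The summed level was 10480 to 11450 CPM in F1, 9867 to 10740 CPM in F2 and 7477 to 8209 CPM in F3, without overlap between F3 and the others. Of all symbols, 27.7% were called lower in F3 than in F1 and 31.4% lower than in F2. Leaving out 1 animal left 0 to 1 members higher than in F1 and 1 to 3 higher than in F2. Between F2 and F1, 11 were lower and 1 higher, against 13.7% and 15.1% of all symbols. The count lower was 3 without F2 control 4, 4 without F1 control 3 or F2 control 3 and 5 without F1 control 4. With the striatal and myelin levels of each animal as covariates, 44 members were lower in F3 than in F1 and 7 lower than in F2. In that fit 2278 of the 11025 tested symbols were called lower in F3 than in F1 and 796 lower than in F2.

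Across all 11025 tested symbols, 3169 differed between F2 and F1 controls (1663 higher and 1506 lower in F2), 6133 between F3 and F1 (3083 and 3050) and 7083 between F3 and F2 (3618 and 3465). The median size of the called differences was 0.48, 0.47 and 0.52 on the log2 scale. All 4 animals of one generation lay beyond all 4 of the other for 29.6%, 48.3% and 60.5% of symbols in these pairs. Differences between untreated groups were therefore spread over much of the transcriptome in every pair of tables. With the striatal and myelin levels of each animal as covariates, 305 symbols were called between F2 and F1, 4573 between F3 and F1 and 1908 between F3 and F2. These covariates themselves differed between the generations, so the fit removes part of the generation contrast with them.

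**Figure D3:**
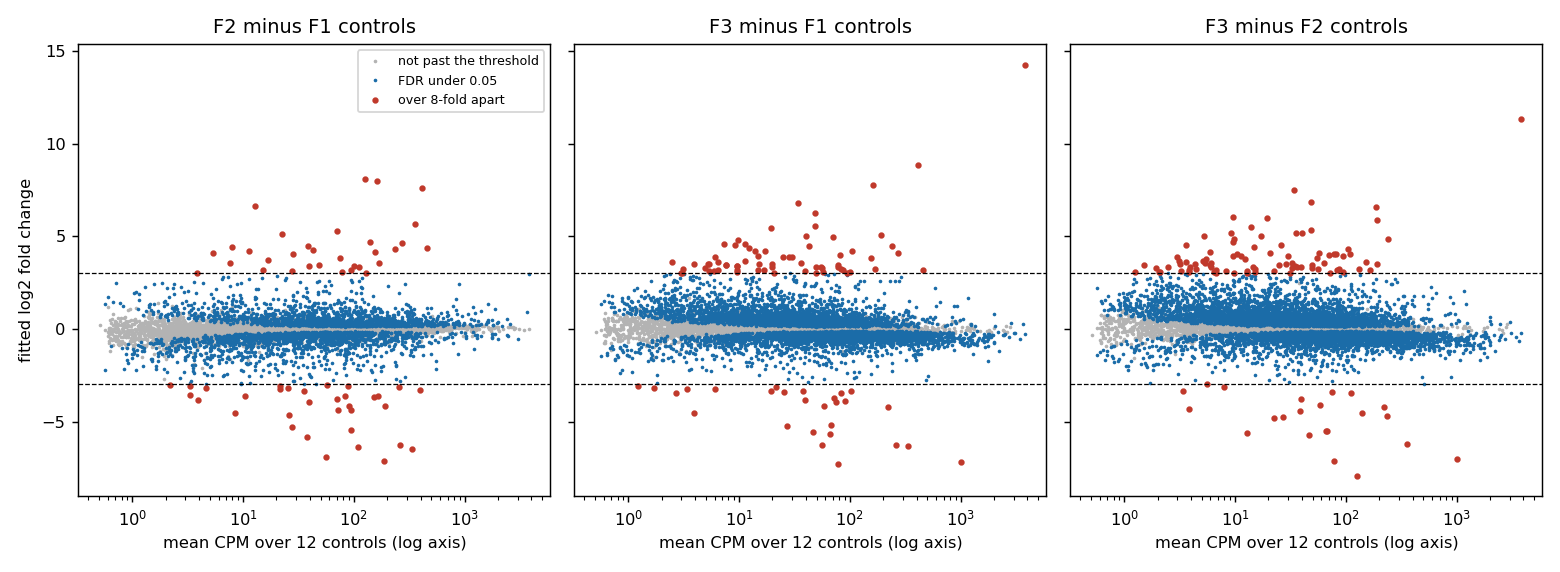
Fitted log2 fold change between the controls of each pair of generations (vertical axis) against mean CPM over the 12 controls (horizontal axis, log scale), with 1 point per tested symbol. Grey points did not pass the test, blue points did, and red points lie beyond the dashed lines at 8-fold. These red points number 65, 95 and 110 from left to right, and GLRA4 is the highest point in the F3 minus F1 and F3 minus F2 panels.

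Some of the called symbols jumped over 8-fold between tables. There were 65 (0.590% of tested symbols) between F2 and F1, 95 (0.862%) between F3 and F1 and 110 (0.998%) between F3 and F2. In all, 169 symbols jumped in at least 1 pair, 141 of them with a mean of at least 5 CPM, and 4 of them belonged to the striatal list. By the table that stood apart, 70 were high in F3, 26 low in F2, 24 low in F1, 22 high in F1, 15 high in F2 and 12 low in F3. Their median pooled SD of log2 CPM within tables was 0.253, against 0.133 for all tested symbols. Only 32 of them had an SD under the median of all tested symbols, so most varied more than a typical symbol between animals of a table. That they differed more between tables than within them follows from how they were picked. No symbol was at 5 reads or fewer in every control of one generation and at 50 or more in every control of another.

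OFD1, a protein of centrioles and cilia, was at 1447 to 1709 CPM in F1, at 1328 to 1526 CPM in F2 and at 10.1 to 12.3 CPM in F3. NME7, of the nucleoside diphosphate kinase family, was at 930 to 1067 CPM in F1 and at 8.53 to 13.7 CPM in F2 and F3. TRIAP1, a mitochondrial regulator of apoptosis, was at 315 to 361 CPM in F1, at 1.798 to 2.99 CPM in F2 and at 212 to 244 CPM in F3. For these 3 symbols the animals of a table lay close together.

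Others were high in 1 table or low in 1 table. ENO4, of the enolase family, was at 326 to 426 CPM in F2 and at 0.645 to 2.94 CPM in F1 and F3. TMEM54 was at 0.740 to 1.499 CPM in F1 and at 252 to 273 CPM in F2, and CCDC152 at 0.750 to 3.92 CPM in F1, at 346 to 408 CPM in F2 and at 644 to 1089 CPM in F3. SMC6, of the complex that maintains chromosome structure, was at 43.4 to 45.7 CPM in F1 and at 863 to 985 CPM in F2, and PURB, a nucleic acid binding protein, at 14.9 to 26.4 and 428 to 521 CPM. ATPAF2, an assembly factor of ATP synthase, was at 615 to 682 CPM in F2 and at 21.7 to 33.3 CPM in F1 and F3. Among others, SLC15A3 fell from 118 to 132 CPM in F1 to 0.326 to 1.19 CPM in F3, NOXA1 was at 144 to 189 CPM in F1 alone, and CCDC183 and BRICD5 reached 94.2 to 112 and 134 to 150 CPM in F3 from 0.384 to 1.997 CPM elsewhere.

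For several of these symbols a comparable level stood under another symbol that had no row in the same table. The pairs below were picked after the values were seen, from general knowledge of mammalian gene order, in which the members of each pair are neighbours. ESAM, an adhesion molecule of endothelium, was at 1216, 979, 982 and 990 CPM in F2 and at 12.4 to 21.2 CPM in F1 and F3. VSIG2 has rows in F1 and F3 only, at 874 to 1458 and 428 to 631 CPM. The sum of ESAM and VSIG2 was 894 to 1479 CPM in F1, 979 to 1216 CPM in F2 and 440 to 646 CPM in F3, lower in F3 without overlap. Of the 14 endothelial and pericyte genes, 3 including ESAM were higher in F2 than in F1, against 15.1% of all symbols. CLDN5, a tight junction protein, was at 112 to 129 CPM in F1 and at 103 to 120 CPM in F2. CWC25 was at 13.1 to 16.0 CPM in F1 and at 189 to 265 CPM in F2 and F3, and PIP4K2B, with a row in F1 only, was at 222 to 237 CPM. Their sum was 245 ± 6.98 (SD, n = 4) in F1, 254 ± 10.6 in F2 and 200 ± 7.75 CPM in F3. The sum of AIFM3 and LZTR1 was 170 ± 8.09, 181 ± 7.03 and 214 ± 15.1 CPM, although AIFM3 alone went from 22.7 ± 2.19 CPM in F2 to 214 ± 15.1 CPM in F3. SLC10A3 and UBL4A summed to 323 ± 12.7, 322 ± 15.8 and 232 ± 22.0 CPM.

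Other sums differed between tables as well. LENG8 and TTYH1 summed to 379 ± 39.0 and 349 ± 24.7 CPM in F1 and F2 and to 665 ± 48.5 CPM in F3. C20orf196 and CHGB summed to 482 ± 91.5, 454 ± 62.0 and 283 ± 23.4 CPM. PTRH2 and VMP1 summed to 402 ± 39.6 CPM in F1, to 22.1 ± 1.51 CPM in F2 and to 197 ± 7.01 CPM in F3. There were 896 symbols with a row in only 1 or 2 of the 3 tables, and 140 of them reached 50 CPM in every control of at least 1 generation. Whether reads moved between symbols was not tested, since the annotations used for counting were not given in the sources used here.

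**Figure D4:**
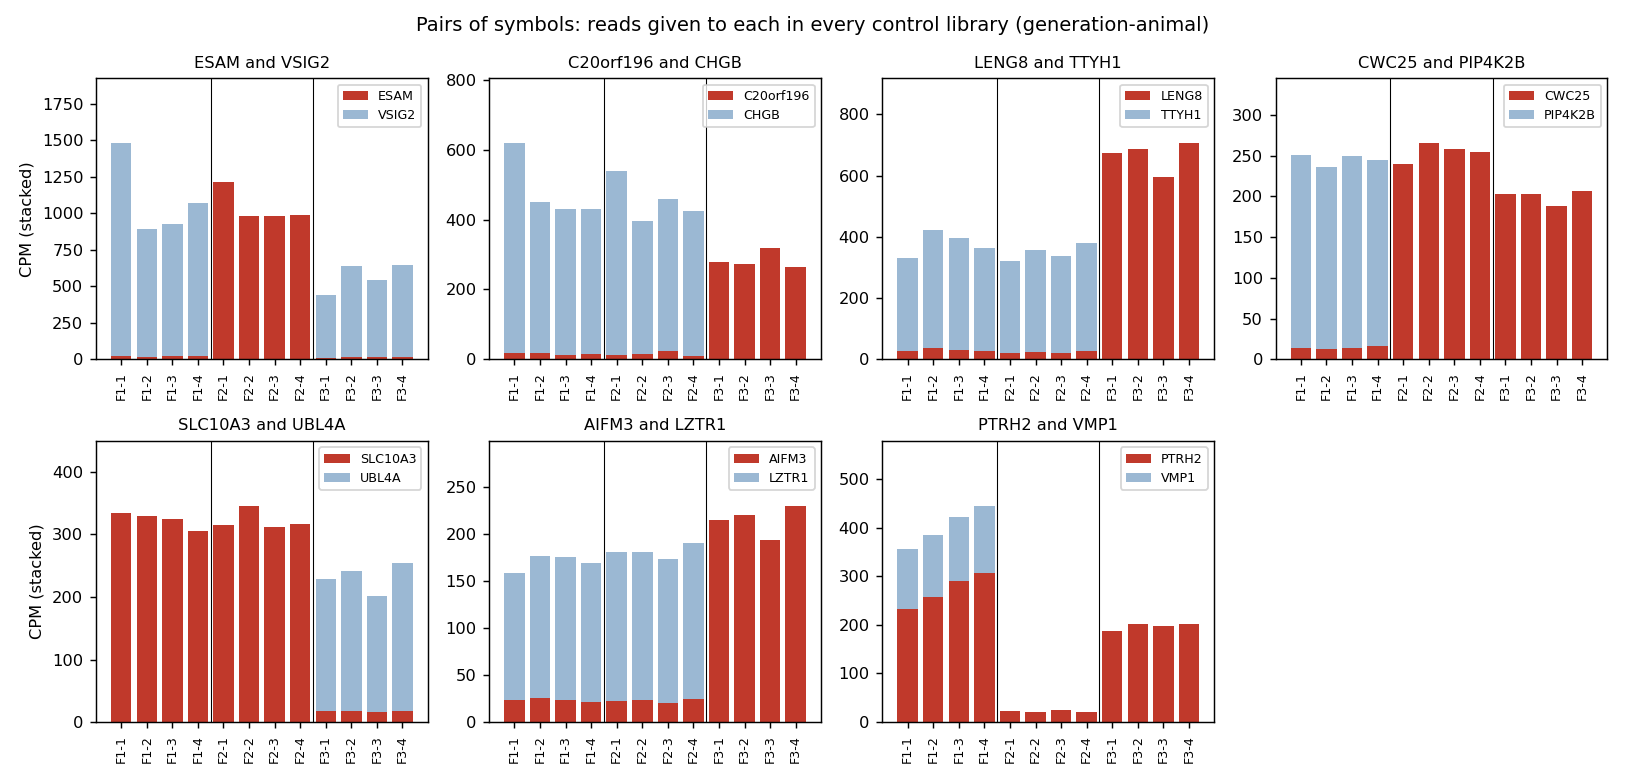
CPM of 7 pairs of neighbouring symbols in the 12 control libraries (horizontal axis, generation and animal number), stacked with the jumping symbol in red and its partner in blue. A partner without a row in a table is drawn at 0. The sum is nearly level for CWC25 and PIP4K2B, and it falls from 402 CPM in F1 to 22.1 CPM in F2 for PTRH2 and VMP1.

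The sGC females of the same 3 tables, 4 per generation, were daughters of betamethasone-treated dams in F1 and came through the male line from them in F2 and F3. They share no animal with the controls and were fitted separately. Between F2 and F1, 1098 symbols were called in the sGC animals (5.45% of tested symbols higher and 4.51% lower in F2), far fewer than in the controls. Of the 3169 called in the controls, 56.6% had the same sign in the sGC animals. Called in both in the same direction were 783, which was 24.7% of the controls' calls and 71.3% of the sGC calls. In contrast, between F3 and F1 the sGC animals gave 6697 calls (31.6% higher and 29.1% lower in F3), and 97.1% of the controls' calls kept their sign. Between F3 and F2 they gave 5920 (28.6% higher and 25.1% lower in F3), with 97.6% keeping their sign. Both calls in the same direction were made for 82.2% of the controls' calls between F3 and F1 and for 73.9% between F3 and F2.

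Most of the jumps over 8-fold recurred in the sGC animals. Of the 65, 95 and 110 symbols, 51, 84 and 76 also jumped over 8-fold in the same direction there. ESAM had a log2 fold change from F1 to F2 of 5.67 in controls and 5.89 in sGC animals, OFD1 from F1 to F3 of -7.18 and -6.88, and GLRA4 from F1 to F3 of 14.26 and 13.98. ESAM, OFD1 and GLRA4 thus differed between tables in both arms. Not every jump recurred, and DRD2 from F1 to F3 was at -3.36 in controls and 0.13 in sGC animals.

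The tissue lists were less alike in the 2 treatment arms. The striatal median between F2 and F1 was -2.17 in controls and -0.59 in sGC animals, where 3 of 16 members were called lower. Of all symbols in the sGC animals, 4.51% were called lower and 5.45% higher in F2. The myelin median was -1.35 in controls and 0.39 in sGC animals, where none was called lower and 1 was called higher, and the glutamatergic median was 1.07 and -0.24. Whether the arms differed in these contrasts was not tested. The oxidative phosphorylation genes had medians of -0.42 in controls and -0.37 in sGC animals between F3 and F1. In the sGC animals 41 of 53 were called lower, against 29.1% of all symbols. Myelin was higher in F3 than in F2 in both arms, for 16 of 17 members each. Between F3 and F1 1 member was called higher in controls (median 0.49) and 16 in sGC animals (median 1.5). Of all symbols, 32.8% in controls and 28.6% in sGC animals were called higher in F3 than in F2. Between F3 and F1 these shares were 28.0% and 31.6%. AQP4 was higher in F3 than in F1 by 1.66 in controls and by 2.76 in sGC animals, and OLIG2 was higher in F2 than in F1 by 1.93 and 3.14.

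**Figure D5:**
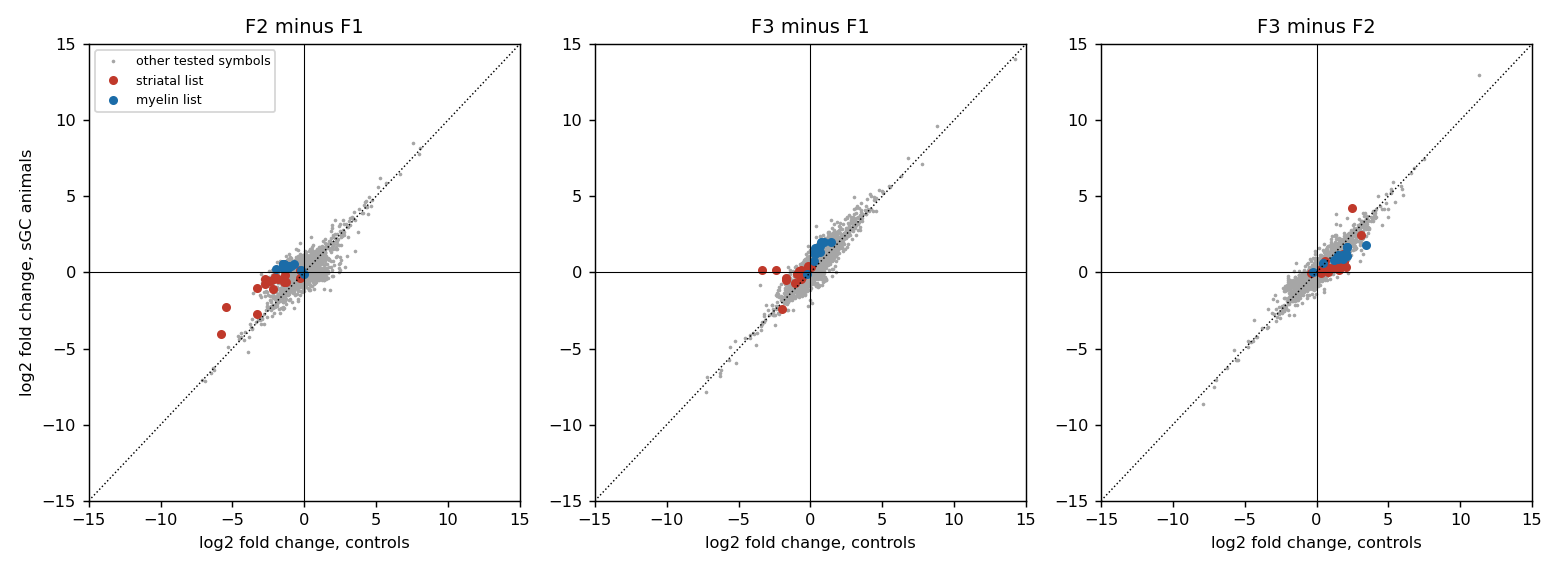
Log2 fold change between generations in controls (horizontal axis) and in sGC animals of the same tables (vertical axis), 1 point per symbol, with striatal genes in red, myelin genes in blue and a dotted line of equality. Many points far from the origin lie near the line, but some do not. Between F2 and F1, SYNDIG1L was at -5.45 in controls and -2.3 in sGC animals, and between F3 and F1, DRD2 was at -3.36 and 0.13. Between F2 and F1 most myelin genes lie left of the vertical axis and near or above the horizontal one, with medians of -1.35 and 0.39.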

How the data were processed

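RNA from mPFC punches had been made into poly-A selected libraries and sequenced with single-end reads. Per the labels and the file headers, the authors deposited a table for each generation that holds raw counts by symbol, not normalized. The submitters' processing notes name TopHat2 and edgeR, and the genome build, annotation and read counter were not given in the sources used here. The fold change, CPM, likelihood ratio and p-value columns, which are the authors' own comparisons of sGC with control animals, and the table of males were not used.

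Symbols with a row in all 3 female tables were joined and the 12 controls were fitted together in R 4.3.3 with edgeR 4.0.16 (filterByExpr with a minimum count of 10 and a minimum total of 15, TMM, quasi-likelihood test by generation), with an FDR under 0.05 called. The list levels use a pseudocount of 1. The biological coefficient of variation was 0.115. The 12 sGC females were fitted in the same way. Alternatives, with limma 3.58.1 and DESeq2 1.42.0, are given below. The code was tested on simulated counts with known changes.

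Members and gene lists were chosen with earlier results of these data known, so lists are described by counts and medians with no p-value. Named genes were the 10 most abundant, the first 5 of each list with further striatal, myelin and layer genes, those with the largest changes and the most abundant over 8-fold, and those with the largest and smallest SD. CAMK2A, GRIN1, NRGN, SLC17A6, NPY, S100B, HCRT, EGR4, ARNTL, BTG2 and the paired symbols fall outside this rule and were named after their values were seen. RefSeq mCavPor4.1 gives no chromosomes here, so neighbouring genes were not computed. Precision is limited by the number of animals. The p-values set each difference against the spread between these animals, and not against any spread between tables or processing runs. Results for some genes are not reported here.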

Additional observations from a re-analysis of the deposited data

Results flagged for a closer look

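In 7 of 111 sets of 4 control values (gene list levels and the genes with the largest jumps, in each generation), 1 animal lay so far from the others that the gap exceeded Dixon's 95% limit. Chance flags about 1 set in 20. F2 control 2 was apart on the striatal list level (4.314, against 3.962 to 4.012 log2(CPM + 1) in the other F2 controls) and on the interneuron level (5.521, against 5.332 to 5.363). F2 control 1 was apart on the choroid plexus and meninges level (3.478, against 3.867 to 3.926) and for ESAM (10.25, against 9.937 to 9.953). TMEM54 was low in F3 control 1 (7.241, against 7.942 to 7.965), CCDC183 was low in F2 control 4 (0.4688, against 0.6701 to 0.7007) and SLC10A3 was high in F2 control 2 (8.437, against 8.290 to 8.308).

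Among 669 combinations of a listed or named gene and a pair of generations, 3 went in opposite directions in the control and the sGC animals without overlap in either. KCMF1 between F2 and F1 was at 0.10 in controls and -0.12 in sGC animals, NDRG2 between F3 and F1 at -0.20 and 0.20, and CCT6A between F3 and F2 at -0.08 and 0.07, all on the log2 scale. KCMF1 and CCT6A had been named for having the smallest SDs within generations, so even small shifts can part their groups without overlap. Neither passed the quasi-likelihood test in its contrast, with FDRs of 0.0764 and 0.0806 in controls and of 0.227 and 0.295 in sGC animals. The share of such cases over all symbols is not given here. These differences between the arms were not tested.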

How the results depend on the processing

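The counts of symbols that differed between generations stayed within 1.5 times under RLE and upper-quartile scaling, other filters, the likelihood ratio test, DESeq2, a single fit of all 24 females, and without F1 controls 1 and 4 (an alternative chosen after seeing the data). They moved with the striatal and myelin covariates, to 305 between F1 and F2 and 1908 between F2 and F3, and with an added unadjusted p under 0.001, to 1619 for genes differing between F1 and F2 controls, 3590 for genes differing between F1 and F3 controls and 4502 for genes differing between F2 and F3 controls. Leaving out 1 animal at a time gave 2488 to 3443 between F1 and F2, 5425 to 6438 between F1 and F3 and 6665 to 7358 between F2 and F3. Counts over 8-fold were 63 to 72, 90 to 99 and 101 to 111, and the sGC counts 929 to 1218, 6145 to 6764 and 5282 to 6041, in the same order of F2 minus F1, F3 minus F1 and F3 minus F2. Upper-quartile scaling put 47.4% of the F2 minus F1 calls higher in F2, against 52.5%. Correlations of the deviations of animals with the same replicate number were -0.10 to 0 for F2 minus F1, -0.44 to 0.10 for F3 minus F1 and 0.06 to 0.19 for F3 minus F2, so not every pair was over 0.1 in any contrast and the numbers were not taken to pair animals. A replicate block gave 2948, 5951 and 6937 calls. Among 133 calls of named genes between generations, 11 values reversed, all with the covariates and none past the threshold there. For F2 minus F1 these were PPP1R1B (0.06), DRD2 (2.27), RASGRF2 (-0.15), BCL11B (0.41) and FOXP2 (0.28), for F3 minus F1 PPP1R1B (0.07), and for F3 minus F2 OLIG2 (-0.13), RORB (0.23), RASGRF2 (0.11), FLT1 (0.11) and CDH5 (0.03). PPP1R1B and DRD2 are themselves members of the list that gives the striatal covariate, so their reversal in the covariate fit is no separate evidence about them. The striatal levels of the F1 and F2 controls did not overlap, so that fit compares these generations at levels they did not share. Of 3059 alternative values for these calls, 2846 passed the threshold in the same direction and 202 did not pass it.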

Other observations

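Immediate early genes, which report recent neuronal activity, differed gene by gene. EGR4 was at 205 to 271 CPM in the F1 controls, at 53.7 to 65.1 CPM in F2 and at 30.3 to 41.4 CPM in F3, and its log2 fold change between F3 and F1 was -2.64 in controls and -2.67 in sGC animals. EGR1 was at 360 to 719, 415 to 590 and 141 to 189 CPM, and FOS at 51.9 to 81.2, 42.8 to 63.0 and 23.0 to 35.5 CPM. BTG2 was higher in F3, at 18.8 to 23.6 CPM against 9.15 to 14.5 CPM in F1 and F2. Of 13 tested genes of the list, 5 were lower and 1 higher in F3 than in F1, against 27.7% and 28.0% of all symbols, and 2 were higher without F1 control 1. F1 control 1 was highest in its generation for 10 of the 13.

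PER3, a circadian clock gene, was at 1.01 to 1.70 CPM in the F1 and F2 controls and at 9.48 to 16.5 CPM in F3, a log2 fold change against F1 of 3.10 in controls and 3.04 in sGC animals. ARNTL, another clock gene, was at 66.7 to 91.3 CPM throughout. Of 11 clock genes, 3 were higher and 2 lower in F3 than in F1, and of 9 glucocorticoid targets 3 were lower and none higher, against 28.0% higher and 27.7% lower over all symbols. FKBP5, the receptor's co-chaperone, lay between 11.1 and 16.5 CPM in every control and TSC22D3 between 79.2 and 108 CPM.

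The other lists are given for F3 against F1, where 28.0% of all symbols were called higher and 27.7% lower, so counts of 2 or 3 are near or below that background. Of 10 oligodendrocyte precursor genes, 3 were higher, but 8 were without F1 control 2 and 1 was without F1 control 1, F1 control 4, F3 control 1 or F3 control 3. Of 11 microglial genes, 2 were higher and 2 lower. Of 14 endothelial and pericyte genes, 7 were lower and none was higher. Of 9 heat shock genes, 5 were lower and 1 higher. Of 49 cytosolic ribosomal protein genes, 28 were lower and 1 higher (19 to 33 lower when 1 animal was left out). Of 7 choroid plexus and meningeal genes, 2 were lower. ALAS2, the red blood cell gene tested, lay between 0.561 and 4.06 CPM. Of 10 genes the study picked from these animals, which are therefore no independent evidence, 1 was lower, and 3 were without F1 control 2. KRT80, one of them, was at 10.1 to 59.5 CPM in F1 controls and highest in control 1.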
